A study of Mus musculus with 8 samples.

Results

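Src-family kinases are tyrosine kinases attached to the inner face of the plasma membrane, and the account below follows 7 genes of this signalling step in cultured macrophages: Lyn, Fgr, Fyn, Src and Yes1 of the family itself, Csk, the kinase that holds the family inactive, and Syk, the kinase that acts next. They were taken by symbol from the raw count tables, which list 53735 genes, and all 7 were found and passed the filter on low counts that left 14418 genes for testing. The libraries came from bone marrow derived macrophages (BMDMs), that is, bone marrow cells of male C57BL/6J mice grown for 7 days in differentiation medium. Every mouse lacked Apoe, was 6 months old and received angiotensin II (Ang II), a pressor peptide, at 1.44 mg/kg/day from an implanted osmotic minipump for 7 days before the marrow was taken. WT mice were Mkl1+/+, Apoe-/- and KO mice were Mkl1-/-, Apoe-/-, with Mkl1, a coactivator of serum response factor, deleted in the whole animal and not in macrophages alone. Experiment 1 held WT1, WT2, KO5 and KO6, and experiment 2 held WT3, WT4, KO7 and KO8, so that each genotype had 2 libraries in each experiment. No library came from mice without Ang II.

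In macrophages the Src-family kinases phosphorylate the ITAM motifs of adaptor chains that sit beside Fc receptors, C-type lectins and integrins. Syk then binds the phosphorylated motif and passes the signal to adaptors and enzymes such as SLP-76, Vav and phospholipase C gamma. Lyn also phosphorylates the ITIM motifs of inhibitory receptors, which recruit phosphatases, so the same kinase serves activation and its restraint. Fgr and Lyn are typical of myeloid cells, whereas Src, Fyn and Yes1 are found in most tissues.

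Libraries held between 33977799 and 41584540 counts, and levels are given as CPM, the share of a library's counts on the usual scale, after TMM scaling of library sizes. The 4 groups of libraries did not lie apart by genotype alone. Log2 differences of group means over all tested genes had an SD of 0.41 when WT1 and WT2 were set against KO7 and KO8. The SD was 0.98 between the genotypes within experiment 1 and 0.86 within experiment 2. Between the experiments it was 0.84 for WT and 0.90 for KO, and it was 0.98 for KO5 and KO6 against WT3 and WT4. Replicate libraries lay further apart in experiment 2, with a chi-square per gene of 66.0 for WT and 80.1 for KO, than in experiment 1, with 15.6 and 12.3. Mkl1 (chr15:81012281-81190757 of GRCm38, minus strand) stood at 25.6, 27.1, 26.8 and 29.6 CPM in WT1 to WT4 and at 19.5, 20.9, 14.6 and 10.4 CPM in KO5 to KO8. All KO libraries lay below all WT libraries, by 10.9 CPM on average (exact two-sided permutation test, p = 0.0286 over 70 arrangements). When genotypes were permuted inside each experiment instead, the exact p was 0.0556, the smallest that 36 arrangements can give, so that test could not pass. The log2 fold change of Mkl1 was -0.39 in experiment 1 (edgeR adjusted p = 0.00381) and -1.17 in experiment 2 (edgeR adjusted p = 0.0218), with a difference between them of -0.79 (edgeR interaction, adjusted p = 0.0238). Over both experiments it was -0.78 and did not pass (edgeR adjusted p = 0.0574). Reads on Mkl1 thus remained in every KO library, and the deleted part of the gene is not given in the sources used here. The 10 macrophage markers were detected and summed to between 15863 and 36324 CPM, with neutrophil markers at no more than 1.52 CPM, dendritic cell markers at no more than 1.70 CPM and lymphoid markers at no more than 5.64 CPM. Fibroblast markers summed to 178 and 235 CPM in KO5 and KO6 and to between 2.18 and 12.1 CPM in the other 6 libraries. In RNA from whole cultures, fewer cells of a type and less RNA per cell cannot be told apart.

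The promoter sequences of Syk, Fgr, Src and Fyn are shown because these genes moved with the genotype in different ways, and because Mkl1 acts through serum response factor at the CArG box. Each is the 250 bases before the RefSeq start on GRCm38.p6, plus strand, 5′ to 3′, at chr13:52583187-52583436 for Syk, chr4:132973845-132974094 for Fgr, chr2:157424043-157424292 for Src and chr10:39369549-39369798 for Fyn. Capitals mark matches, on either strand, to the CArG box, to an NF-κB motif, or to GAGGAA, the letters at the core of many sites of PU.1, the factor that specifies myeloid cells.
Syk: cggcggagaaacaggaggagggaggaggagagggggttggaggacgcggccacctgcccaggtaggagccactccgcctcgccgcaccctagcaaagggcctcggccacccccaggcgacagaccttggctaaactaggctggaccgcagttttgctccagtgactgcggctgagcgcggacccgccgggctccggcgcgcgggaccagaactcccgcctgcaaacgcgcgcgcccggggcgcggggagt
Fgr: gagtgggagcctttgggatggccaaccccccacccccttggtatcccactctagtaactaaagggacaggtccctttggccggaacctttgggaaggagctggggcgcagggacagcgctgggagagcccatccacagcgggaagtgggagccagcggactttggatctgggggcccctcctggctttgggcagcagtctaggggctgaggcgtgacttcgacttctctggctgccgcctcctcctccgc
Src: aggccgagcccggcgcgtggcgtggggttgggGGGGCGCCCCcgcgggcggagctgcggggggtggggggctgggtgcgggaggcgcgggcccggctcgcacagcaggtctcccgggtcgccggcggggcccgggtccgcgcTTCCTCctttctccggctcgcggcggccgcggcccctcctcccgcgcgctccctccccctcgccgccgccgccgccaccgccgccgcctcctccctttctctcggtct
Fyn: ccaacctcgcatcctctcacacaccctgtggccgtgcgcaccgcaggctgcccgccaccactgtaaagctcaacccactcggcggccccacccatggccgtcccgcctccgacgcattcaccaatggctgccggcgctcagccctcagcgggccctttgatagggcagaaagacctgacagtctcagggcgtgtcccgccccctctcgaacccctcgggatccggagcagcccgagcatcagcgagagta
A CArG box was present in 0 of the 8 windows of the members, against 1.47% of 32851 RefSeq windows of this length, and 6 of the 7 members had a window. The Src window held 1 NF-κB motif, which reads the same on both strands, and 1 GAGGAA on the minus strand. NF-κB motifs were in 7.25% of all windows and GAGGAA in 23.3%, and GAGGAA was also in both Csk windows and in a second Syk window further into the gene. The Syk, Fgr and Fyn windows printed above held none of the 3. The Syk, Src and Fyn windows printed above lie inside the gene spans given below, which begin further upstream than the RefSeq starts used here. These letters describe the windows and do not locate a bound factor.

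Between genes, levels can be compared only per length, and the per-length level used here is CPM per kb of exon. Lyn had the highest median of the 7 genes over the 8 libraries, at 94.8 CPM per kb (range 47.8 to 119). Syk stood at 79.3 CPM per kb (40.3 to 111), and Csk at 33.3 CPM per kb with the smallest ratio of highest to lowest level among the 7, from 26.3 to 37.8. Fyn stood at 20.1 CPM per kb (12.8 to 25.6), Fgr at 3.77 (0.847 to 10.3) and Src at 2.43 (1.54 to 13.4). Yes1 was close to the limit of detection, with a median of 0.0307 CPM per kb and a range of 0.0115 to 0.209. The ranges of Lyn and Syk and of Fgr and Src overlapped, but both genes of a pair were measured in the same libraries. Lyn was above Syk in every library except WT4, where Lyn stood at 94.3 and Syk at 111 CPM per kb. The order of Fgr and Src changed from library to library. Ranges did not overlap between Syk and Csk, Csk and Fyn, Fyn and Fgr, or Src and Yes1. With the length of the longest coding transcript in place of all exons, an alternative added after the data were seen, Syk came first at a median of 138 CPM per kb and Lyn next at 111.

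**Figure D1:**
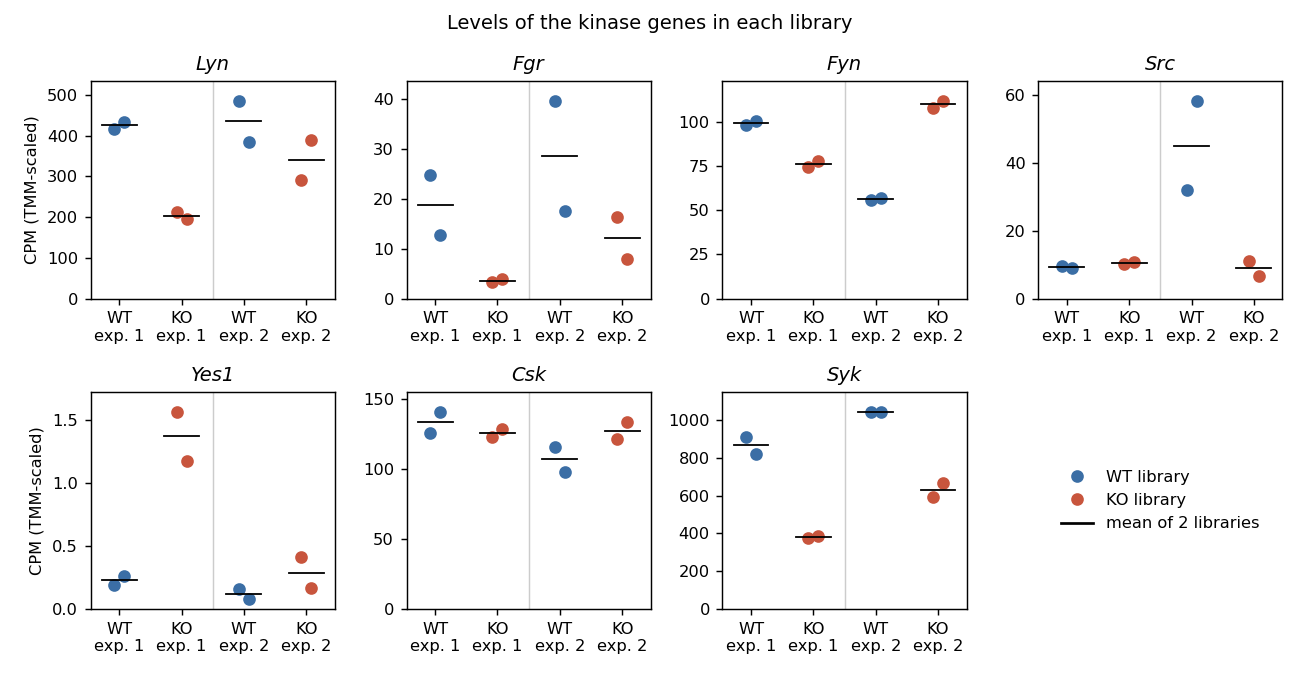
CPM of each of the 7 genes in each library, with the vertical axis from 0 in every panel, points for the 8 libraries and a line for the mean of 2. Of the 7, Syk alone has all KO points (377 to 667 CPM) below all WT points (818 to 1043 CPM), whereas the Fyn pair of WT and KO points changes order between the experiments.

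Lyn (chr4:3678115-3813122, plus strand), the most abundant of the 5 family members followed here, was at 415 and 434 CPM in WT1 and WT2 and at 212 and 195 CPM in KO5 and KO6. In experiment 2 it was at 485 and 384 CPM in WT3 and WT4 and at 292 and 388 CPM in KO7 and KO8. The KO libraries lay below the WT libraries in experiment 1, and the groups overlapped in experiment 2, where KO8 was above WT4. Lyn fell 2.11-fold in KO in experiment 1 (log2 fold change -1.08, SE 0.07, edgeR adjusted p = 8.69e-06), and this call held in 11 of 11 alternatives. In experiment 2 the log2 fold change was -0.35 (95% interval -0.87 to 0.15, edgeR adjusted p = 0.278). The difference between the experiments was 0.71 on the log2 scale (edgeR interaction, adjusted p = 0.0402). That call was lost in 7 of 14 alternatives, with adjusted p of 0.0793 without KO5, 0.127 without KO6, 0.0892 without KO8, 0.0846 without WT1, 0.117 without WT2 and 0.0923 without WT4, and at the stricter threshold. Over both experiments the log2 fold change was -0.71 (adjusted p = 0.0669), and the adjusted p was 0.0293 without KO8, 0.00470 with DESeq2 and 0.00395 as the mean of both contrasts from a fit of 4 groups. A noncoding gene on the opposite strand, Gm26857, shares exon positions with Lyn but held 259 counts against 106495 on Lyn.

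Fgr (chr4:132974095-133001910, plus strand), a myeloid kinase that signals downstream of integrins and Fc receptors, was at 24.8 and 12.7 CPM in WT1 and WT2 and at 3.27 and 3.92 CPM in KO5 and KO6. It was at 39.7 and 17.6 CPM in WT3 and WT4 and at 16.4 and 8.01 CPM in KO7 and KO8. Within each experiment both KO libraries lay below both WT libraries, but WT2 was below KO7, and the WT libraries of an experiment differed from each other about as much as KO7 from KO8. Fgr fell 5.26-fold in KO in experiment 1 (log2 fold change -2.40, SE 0.41, edgeR adjusted p = 0.0130). The call was lost without KO5 (log2 fold change -2.27) and without KO6 (-2.54). It was also lost with no filter on low counts (edgeR adjusted p = 0.0636) and at the stricter threshold. In experiment 2 the log2 fold change was -1.23 (95% interval -2.56 to 0.10, edgeR adjusted p = 0.169), and of 11 alternatives only DESeq2 passed the threshold, at 0.0364. That value rested on single libraries, at -0.53 without WT3 and -1.84 without KO7. Over both experiments the log2 fold change was -1.80 (adjusted p = 0.0549), with 0.0428 without WT4, 0.000354 with DESeq2 and 0.00853 as the mean of both contrasts from a fit of 4 groups. The difference between the experiments, 1.15 on the log2 scale, did not pass the test (edgeR adjusted p = 0.223), but passed with no filter on low counts (1.47e-06), and it was 1.88 without WT3.

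Fyn (chr10:39368855-39565381, plus strand), a broadly expressed member, was at 98.1 and 100.5 CPM in WT1 and WT2, at 74.3 and 77.5 CPM in KO5 and KO6, at 55.8 and 57.1 CPM in WT3 and WT4 and at 108 and 112 CPM in KO7 and KO8. Replicates lay close together in every group, and the order of the genotypes turned between the experiments. Fyn fell 1.32-fold in KO in experiment 1 (log2 fold change -0.40, SE 0.06, edgeR adjusted p = 0.000607) and rose 1.95-fold in experiment 2 (log2 fold change 0.96, SE 0.10, edgeR adjusted p = 0.00953). The experiment 1 call held in 11 of 11 alternatives, and the experiment 2 call was lost without KO8 (adjusted p = 0.0543). The difference between the experiments was 1.35 on the log2 scale (SE 0.10, edgeR interaction, adjusted p = 0.000206) and held in 14 of 14 alternatives. A single fold over both experiments, 0.29 on the log2 scale (adjusted p = 0.559, or 0.00499 as the mean of both contrasts from a fit of 4 groups), averages opposite directions.

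Src (chr2:157418444-157471862, plus strand), the founding member of the family, was at 9.76 and 8.98 CPM in WT1 and WT2, at 10.3 and 11.0 CPM in KO5 and KO6, at 32.0 and 58.4 CPM in WT3 and WT4 and at 11.3 and 6.74 CPM in KO7 and KO8. The WT libraries of experiment 2 stood above the other 6 libraries, which lay between 6.74 and 11.3 CPM. Src fell 5.02-fold in KO in experiment 2 (log2 fold change -2.33, SE 0.40, edgeR adjusted p = 0.0267). That call was lost without KO7 (adjusted p = 0.0633), without KO8 (0.118) and with no filter on low counts (0.146). In experiment 1 the log2 fold change was 0.17 (95% interval -0.09 to 0.43, edgeR adjusted p = 0.244). The difference between the experiments was -2.51 on the log2 scale (SE 0.45, edgeR interaction, adjusted p = 0.00432) and held in 14 of 14 alternatives. Over both experiments the log2 fold change was -1.08 (adjusted p = 0.291), which passed as the mean of both contrasts from a fit of 4 groups (0.0102).

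Yes1 (chr5:32611171-32687057, plus strand), another broadly expressed member, had 8, 9, 6 and 3 counts in WT1 to WT4 and 58, 47, 17 and 7 counts in KO5 to KO8. As levels these were 0.197, 0.264, 0.164 and 0.0863 CPM in WT and 1.57, 1.17, 0.415 and 0.168 CPM in KO. KO5 and KO6 were high and the rest low, and Yes1 reached the filter's minimum of 0.259 CPM in 4 libraries, WT2, KO5, KO6 and KO7. Yes1 rose 5.88-fold in KO in experiment 1 (log2 fold change 2.56, SE 0.36, edgeR adjusted p = 0.000508). This held in 10 of the 10 alternatives that kept the gene, whereas a minimum of 10 counts in every library left Yes1 out. The libraries in which it was high are those with fibroblast markers at 178 and 235 CPM, where all 7 of the 7 tested fibroblast markers also rose, by a median of 4.69 on the log2 scale, and the part of other cells in the Yes1 result was not tested. In experiment 2 the log2 fold change of Yes1 was 1.19 (95% interval -0.56 to 2.93, edgeR adjusted p = 0.289) and none of the 7 fibroblast markers passed the test in edgeR. Without KO7 the log2 fold change of Yes1 was 0.40. Over both experiments Yes1 rose 3.96-fold (log2 fold change 1.99, SE 0.45, edgeR adjusted p = 0.0459). This call was lost in 8 of 15 alternatives, with adjusted p of 0.126 without KO5, 0.107 without KO6, 0.131 without KO7, 0.154 without WT1, 0.142 without WT2, 0.101 without WT4 and 0.167 with no term for the experiment, and at the stricter threshold. The difference between the experiments was -1.38 on the log2 scale (adjusted p = 0.204), and -2.13 without KO7.

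Csk (chr9:57626646-57653631, minus strand) phosphorylates the tail of the Src-family kinases and so keeps them closed. It was at 126 and 141 CPM in WT1 and WT2, at 123 and 128 CPM in KO5 and KO6, at 116 and 98.3 CPM in WT3 and WT4 and at 121 and 133 CPM in KO7 and KO8. The genotypes overlapped in experiment 1, and both KO libraries lay above both WT libraries in experiment 2. No comparison passed the test. The log2 fold change was -0.10 in experiment 1 (95% interval -0.26 to 0.06, edgeR adjusted p = 0.267), a value that turned to 0.0025 with upper-quartile scaling, and 0.25 in experiment 2 (95% interval -0.08 to 0.58, edgeR adjusted p = 0.239). Over both experiments it was 0.08 (95% interval -0.17 to 0.33, edgeR adjusted p = 0.682). The difference between the experiments, 0.34 on the log2 scale (adjusted p = 0.109), passed the threshold without WT3 (0.0382).

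Syk (chr13:52583173-52648792, plus strand) carries paired SH2 domains that dock on phosphorylated ITAMs. It was at 910.4 and 818 CPM in WT1 and WT2, at 377 and 386 CPM in KO5 and KO6, at 1040.1 and 1043 CPM in WT3 and WT4 and at 594 and 667 CPM in KO7 and KO8. All 4 KO libraries lay below all 4 WT libraries. Syk fell 2.28-fold in KO in experiment 1 (log2 fold change -1.19, SE 0.07, edgeR adjusted p = 8.72e-06, held in 11 of 11 alternatives) and 1.65-fold in experiment 2 (log2 fold change -0.72, SE 0.14, edgeR adjusted p = 0.0316). The experiment 2 call was lost at the stricter threshold and on leaving out any 1 of its 4 libraries. The log2 fold change was -0.64 without KO7, -0.81 without KO8, -0.73 without WT3 and -0.72 without WT4. Over both experiments Syk fell 1.93-fold (log2 fold change -0.95, SE 0.13, edgeR adjusted p = 0.00939), a call lost without KO5 (0.0508) and with no term for the experiment (0.149). The fall was smaller in experiment 2 by 0.45 on the log2 scale (SE 0.14, edgeR interaction, adjusted p = 0.0379). That difference was lost in 8 of 14 alternatives, with adjusted p of 0.112 without KO5, 0.105 without KO6, 0.0714 without KO8, 0.128 without WT1, 0.0623 without WT2, 0.0592 without WT3 and 0.0625 without WT4, and at the stricter threshold.

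**Figure D2:**
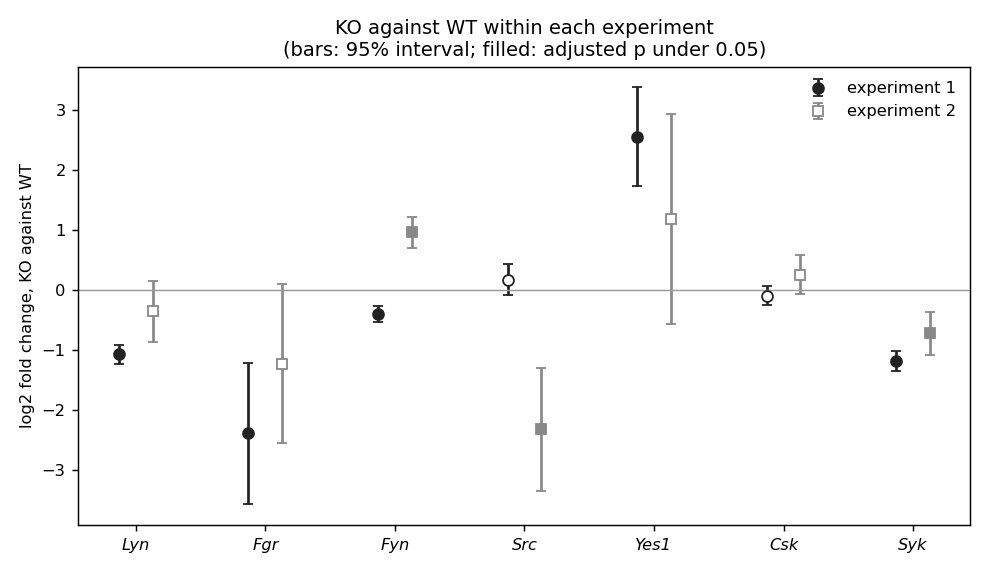
Log2 fold change of KO against WT (vertical axis) within experiment 1 (circles) and experiment 2 (squares) for the 7 genes, with 95% intervals and filled symbols where the edgeR adjusted p was under 0.05. Fyn lies at -0.40 in experiment 1 and at 0.96 in experiment 2, and the intervals of Csk include 0 in both.

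Counted together, 4 of the 7 genes fell in KO in experiment 1 (Lyn, Syk, Fyn and Fgr) and 1 rose (Yes1), where 28.1% of all tested genes fell and 27% rose. In experiment 2, 2 fell (Src and Syk) and 1 rose (Fyn), against 8.29% and 7.52% of tested genes. Over both experiments 1 fell (Syk) and 1 rose (Yes1), against 3.41% and 3.72%. The median log2 fold change of the 7 genes was -0.40, -0.35 and -0.71 in these comparisons, beside 0.01, 0.01 and 0.00 over all tested genes. The interaction of genotype and experiment passed for 4 of the 7 genes (Src, Fyn, Lyn and Syk), where 41.6% of tested genes passed that test. All KO libraries lay below all WT libraries for 1 of 7 (Syk), against 6.25% of tested genes, and all KO libraries above all WT libraries for 0 of 7, against 6.46%. The KO libraries in experiment 1 are also those with the high fibroblast marker sums, whose part in the other calls of that experiment was not tested, and the values of experiment 2 stand without them. Of the 10 macrophage markers, 3 fell and 6 rose in experiment 1, and 2 fell and 3 rose in experiment 2.

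The other relatives of the family given here, Lck, Frk and Blk, were low in these libraries. Lck, the family member of T cells, lay between 0.433 and 2.08 CPM over the libraries and had log2 fold changes of -0.75 and -0.88 in the 2 experiments (edgeR adjusted p = 0.0805 and 0.203). Frk, an epithelial relative, lay between 2.21 and 3.82 CPM, with log2 fold changes of -0.40 and -0.40 (edgeR adjusted p = 0.134 and 0.396). Blk, the member of B cells, had 0 counts in every library, which allows up to 0.0719 to 0.0880 CPM depending on the library (limit of 3 counts, counting error only).

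Summed per length over Lyn, Fgr, Fyn, Src and Yes1, these 5 kinases stood at 133 and 135 CPM per kb in WT1 and WT2, at 72.4 and 69.3 in KO5 and KO6, at 149.5 and 125 in WT3 and WT4 and at 103 and 125 in KO7 and KO8. KO5 and KO6 were the lowest, and KO8 stood close to WT4. Lyn held most of that sum in every library, between 69.0% and 79.7%. The share of Fyn was 16.9% and 17.0% in WT1 and WT2, 23.5% and 25.7% in KO5 and KO6, 8.55% and 10.4% in WT3 and WT4 and 24.0% and 20.6% in KO7 and KO8. Fyn took a larger share of the sum in the KO libraries of both experiments, although its own level fell in experiment 1. The share of Src was between 1.24% and 10.7%, with the highest value in WT4, and that of Fgr between 1.17% and 6.87%. Yes1 held no more than 0.289% in any library. Relative to Csk, the sum was 3.95 and 3.58 times as high in WT1 and WT2, 2.20 and 2.02 in KO5 and KO6, 4.83 and 4.76 in WT3 and WT4 and 3.17 and 3.49 in KO7 and KO8. The ratio of Syk to Csk was 2.88 and 2.31 in WT1 and WT2, 1.22 and 1.20 in KO5 and KO6, 3.59 and 4.23 in WT3 and WT4 and 1.95 and 1.99 in KO7 and KO8. Both ratios were lower in all KO libraries than in all WT libraries, for the sum by a narrow margin between KO8 and WT2. These sums and ratios are descriptions with no test, and they count mRNA and not kinase activity.

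**Figure D3:**
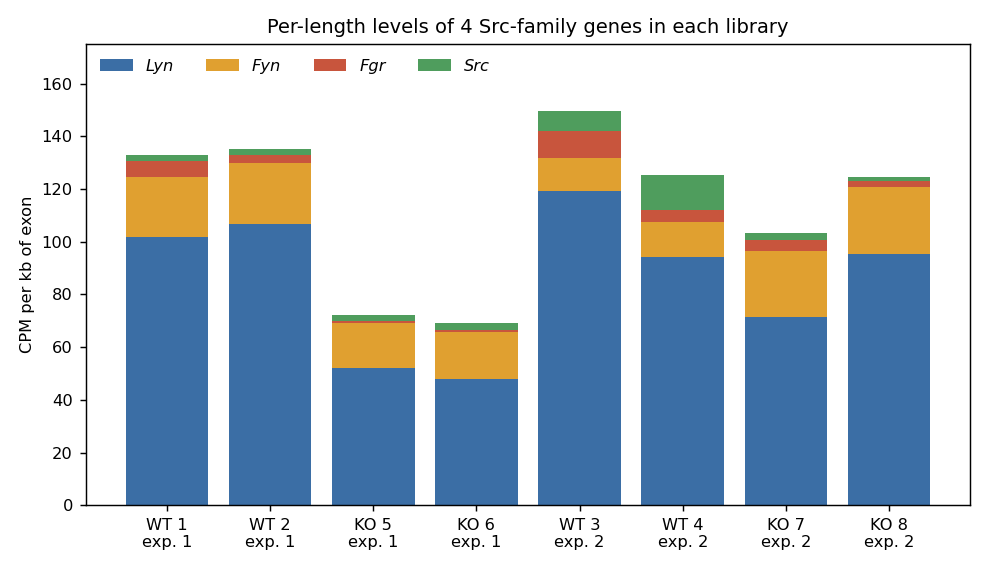
Stacked bars of CPM per kb of exon (vertical axis, from 0) for Lyn, Fyn, Fgr and Src in each of the 8 libraries. The bars of KO5 and KO6 are the lowest, near a summed level of 72.4 and 69.3 CPM per kb, and Lyn forms most of every bar.

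Genes that act around the kinases, as regulators, receptors, or effectors and substrates, were grouped into lists, beside the shares and the medians over all tested genes. Of 14 regulators, phosphatases, Csk-like kinases and ubiquitin ligases that act on the family, 5 fell (Ptprj, Ptpn6, Ptpn12, Ptpn11 and Ptpn22) and 5 rose (Matk, Cblb, Ptpn1, Ptpra and Ptpre) in experiment 1, where 28.1% of all tested genes fell and 27% rose, and the list's median log2 fold change was -0.15. In experiment 2, 2 fell (Matk and Ptpn6) and 1 rose (Unc119), against 8.29% and 7.52% of tested genes, with a median of -0.20. Matk, a kinase of the same kind as Csk, was at 0.762 and 0.616 CPM in WT1 and WT2, at 11.7 and 12.3 CPM in KO5 and KO6, at 3.54 and 5.92 CPM in WT3 and WT4 and at 1.51 and 0.695 CPM in KO7 and KO8. It rose in KO in experiment 1 (log2 fold change 4.10, edgeR adjusted p = 1.91e-06) and fell in experiment 2 (-2.10, edgeR adjusted p = 0.0437). Cblb, a ubiquitin ligase, rose by 1.26 on the log2 scale in experiment 1 (edgeR adjusted p = 2.28e-06) and stood at -0.31 in experiment 2 (adjusted p = 0.552). Unc119, an adaptor that activates the family, stood at 0.13 in experiment 1 (edgeR adjusted p = 0.147) and rose by 0.57 in experiment 2 (adjusted p = 0.0479).

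Of 14 ITAM adaptors and activating receptors upstream of Syk, 13 were tested. In experiment 1, 2 fell (Pilrb1 and Trem3) and 6 rose (Fcgr3, Cd300lb, Trem2, Clec7a, Fcgr1 and Clec4n), against 28.1% and 27% of all tested genes, and the list's median log2 fold change was 0.14, whereas in experiment 2, 3 fell (Clec7a, Clec4e and Trem3) and 0 rose, against 8.29% and 7.52%, with a median of -0.28. Fcgr3, an activating Fc receptor, rose by 2.64 on the log2 scale in experiment 1 (edgeR adjusted p = 8.79e-06) and stood at -0.20 in experiment 2 (adjusted p = 0.818). Cd300lb, a receptor that pairs with the adaptor DAP12, rose by 0.81 in experiment 1 (edgeR adjusted p = 1.48e-05) and stood at 0.05 in experiment 2 (adjusted p = 0.863). Clec7a, the receptor for fungal beta-glucan, was at 26.4 and 31.1 CPM in WT1 and WT2, at 88.9 and 75.2 CPM in KO5 and KO6, at 68.5 and 108 CPM in WT3 and WT4 and at 19.0 and 13.8 CPM in KO7 and KO8. It rose in experiment 1 (log2 fold change 1.50, edgeR adjusted p = 7.9e-05) and fell in experiment 2 (-2.43, edgeR adjusted p = 0.0135). Clec4e, a receptor for mycobacterial glycolipid, stood at -1.29 in experiment 1 (edgeR adjusted p = 0.170) and fell by 4.23 on the log2 scale in experiment 2 (adjusted p = 0.0143).

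All 14 inhibitory receptors with ITIM motifs, the substrates through which Lyn restrains signalling, were tested. In experiment 1, 5 fell (Siglece, Clec4a2, Lair1, Pilra and Sirpa) and 7 rose (Fcgr2b, Cd33, Cd300lf, Lilrb4a, Pirb, Cd22 and Cd300a), beside 28.1% and 27% of all tested genes, and the list's median log2 fold change was 0.13. In experiment 2, 1 fell (Fcgr2b) and 2 rose (Clec4a2 and Pecam1), beside 8.29% and 7.52%, with a median of -0.37. Siglece, a sialic acid receptor, was at 89.0 and 82.2 CPM in WT1 and WT2 and at 1.27 and 1.32 CPM in KO5 and KO6, so that it fell by 6.05 on the log2 scale (edgeR adjusted p = 7.82e-08). In experiment 2 it was at 40.5 and 27.9 CPM in WT3 and WT4 and at 35.5 and 64.5 CPM in KO7 and KO8, where the groups overlapped (log2 fold change 0.55, edgeR adjusted p = 0.320). Fcgr2b, the inhibitory Fc receptor, rose by 1.65 in experiment 1 (edgeR adjusted p = 2.62e-06) and fell by 1.86 in experiment 2 (adjusted p = 0.0325). Clec4a2, an inhibitory lectin, fell by 3.31 in experiment 1 (edgeR adjusted p = 7.08e-06) and rose by 2.33 in experiment 2 (adjusted p = 0.00952). Fcgr2b, Fcgr3, Clec4a2, Pirb and Pilrb1 have close relatives in the genome, between which the counting could divide reads, so their values are uncertain to that extent.

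Of 39 effectors and substrates, 38 were tested, and 12 fell, 12 rose and 14 did not pass the test in experiment 1 (median log2 fold change -0.06), where 28.1% of all tested genes fell and 27% rose. In experiment 2, 6 fell, 4 rose and 28 did not pass (median 0.08), where 8.29% fell and 7.52% rose. Lcp2, which encodes the adaptor SLP-76 that Syk phosphorylates, was at 192 and 192 CPM in WT1 and WT2, at 68.7 and 72.3 CPM in KO5 and KO6, at 341 and 294 CPM in WT3 and WT4 and at 118 and 168 CPM in KO7 and KO8. All KO libraries lay below all WT libraries, and Lcp2 fell by 1.46 on the log2 scale in experiment 1 (edgeR adjusted p = 1.49e-06) and by 1.15 in experiment 2 (adjusted p = 0.0251). Vav1, a guanine nucleotide exchange factor, fell by 1.15 in experiment 1 (edgeR adjusted p = 6.96e-06) and stood at 0.35 in experiment 2 (adjusted p = 0.164). Malt1, the protease of the CARD9 complex downstream of Syk, stood at -0.12 in experiment 1 (edgeR adjusted p = 0.343) and fell by 2.70 in experiment 2 (adjusted p = 0.00327). Gab3, a docking protein, rose by 0.47 and 1.27 in the 2 experiments (edgeR adjusted p = 0.00536 and 0.0124). Over both experiments the calls were Ptpn6 among the regulators, Pilrb1 and Trem3 among the activating receptors and Lcp2, Hcls1, Dok2 and Fyb among the effectors, all lower in KO, with Cttn and Gab3 higher, where 3.41% of all tested genes were lower and 3.72% higher. Of the 14 inhibitory receptors 0 passed in edgeR over both experiments, with 4 at an unadjusted p under 0.05, against 4 called by DESeq2 and 1 by limma-voom. The interaction passed for 7 of 14 regulators, 6 of 13 activating receptors, 12 of 14 inhibitory receptors and 20 of 38 effectors, where 41.6% of all tested genes passed.

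**Figure D4:**
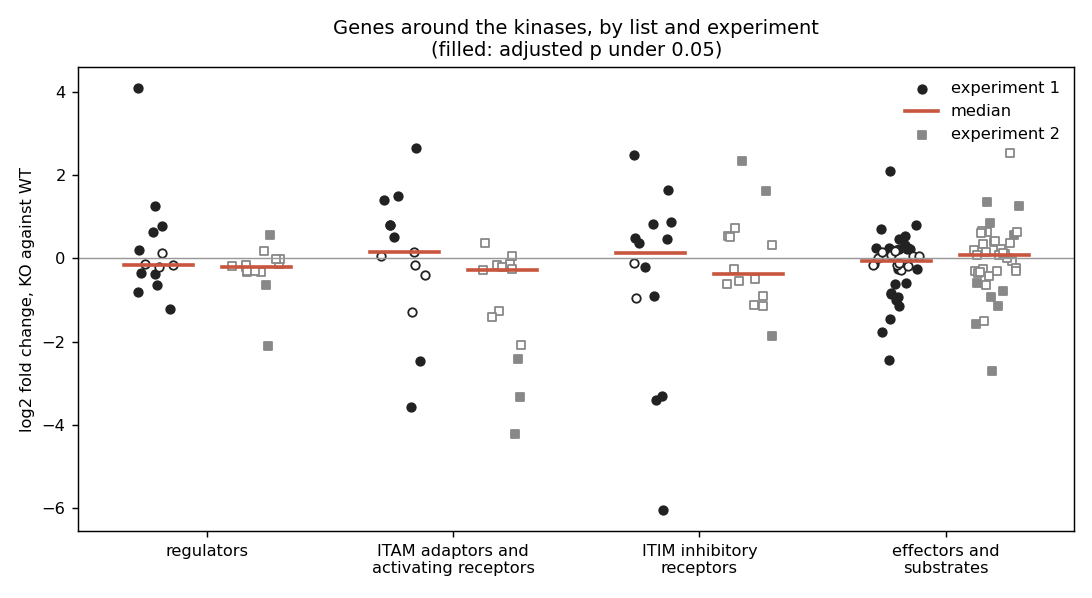
Log2 fold change of KO against WT (vertical axis) of every tested gene in 4 lists around the kinases, in experiment 1 (circles) and experiment 2 (squares), filled where the edgeR adjusted p was under 0.05, with a red line at each median. List medians lie between -0.37 and 0.14, whereas single genes reach -6.05 (Siglece) and 4.10 (Matk) in experiment 1.

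Across the 8 libraries the 7 genes followed different patterns. Pearson's r of log2 CPM was 0.942 between Lyn and Syk, 0.907 between Fgr and Syk and 0.849 between Fgr and Lyn. It was -0.864 between Src and Fyn, -0.913 between Src and Csk and -0.944 between Yes1 and Syk. Among 9072 tested genes averaging a log2 CPM of 3 or more, the genes with the most similar pattern to Syk were Sod2, Snx10 and Nadk (r of 0.994, 0.994 and 0.993). For Lyn they were Usp39, Ccdc50 and Zfp719 (0.996, 0.995 and 0.989), for Fgr Prdx5, Slc28a2 and Pilrb1 (0.984, 0.981 and 0.979), and for Fyn Psen2, Cmas and Akap17b (0.993, 0.992 and 0.992). For Src they were Txn1, Rab12 and Spag7 (0.984, 0.981 and 0.980), and for Csk Fcrls, Ppp1r12c and Dcun1d4 (0.970, 0.965 and 0.955). For Yes1 they were Tnfaip8l2, Mertk and Sepp1 (0.990, 0.989 and 0.986). These values describe 8 libraries in 4 groups of 2, which share genotype, experiment and scaling, and carry no p.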

How the data were processed

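The authors deposited raw counts per gene, whole numbers, for each of 2 experiments, and normalized counts whose factors were set separately in each experiment and which were not used here. The submitters' processing notes list STAR 2.7.0f, Subread 1.6.4, featureCounts, DESeq2 1.22.1 and GRCm38, without role or order, and the annotation and strand setting of the counting are not given in the sources used here. Libraries were made with a stranded mRNA kit. Groups came from the labels, which do not say whether replicates of a group were separate mice, so p-values measure the spread between these samples.

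Genes were filtered with filterByExpr by genotype over the 8 libraries, which left 14418. KO was compared with WT by the quasi-likelihood F test of edgeR 4.0.16 in R 4.3.3 (TMM scaling, robust fit, Benjamini-Hochberg adjustment over all tested genes, threshold 0.05) in experiment 1 alone, in experiment 2 alone, in both with the experiment as a term, and as the interaction of genotype and experiment. SEs were derived from each log2 fold change and its F. Intervals are at 95%. TMM factors were between 0.930 and 1.06. The scripts were tested on simulated data. Alternatives were DESeq2 1.42.0, limma-voom (limma 3.58.1), upper-quartile scaling, no filter beyond 1 count, at least 10 counts in every library, a threshold of 0.01, a fit of 4 groups, no experiment term and each library left out.

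Gene positions and exon lengths came from GENCODE M21 on GRCm38 by symbol, and promoter windows from RefSeq. Log2 CPM used a prior count of 2. The members and lists were chosen with earlier results of these data known. Named were all 7 members, the other listed relatives of the family (1 listed gene is not reported here), of each pathway list the 2 genes with the smallest p in each experiment, the 3 genes most similar in pattern to each member, and Mkl1, and genes called in the 3 shorter lists are given by name besides. Figures were drawn with matplotlib 3.10.9.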

Additional observations from a re-analysis of the deposited data

Results flagged for a closer look

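The effect of the genotype differed between the 2 experiments, by the edgeR interaction test, for 4 of the 7 genes, where 41.6% of all tested genes passed that test. Experiment 2 minus experiment 1, the difference in log2 fold change was -2.51 for Src (adjusted p = 0.00432), 1.35 for Fyn (0.000206), 0.71 for Lyn (0.0402) and 0.45 for Syk (0.0379). The Lyn call was lost in 7 and the Syk call in 8 of 14 alternatives, whereas those of Src and Fyn held in 14 of 14. For Fyn the direction turned, from -0.40 to 0.96. For Src the WT libraries moved, from 9.76 and 8.98 CPM in experiment 1 to 32.0 and 58.4 CPM in experiment 2, whereas the KO libraries lay between 6.74 and 11.3 CPM in both. For Lyn and Syk the KO libraries of experiment 1 were the lowest. Experiment 1 and experiment 2 are the submitters' own names, and what else differed between them cannot be told apart from these labels.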

How the results depend on the processing

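Of the alternatives to the log2 fold changes of the 7 genes, 309 kept direction and side of the threshold, 39 lost a call, 11 gained one and 1 turned in sign, Csk in experiment 1 at 0.0025 with upper-quartile scaling. In experiment 2, 2279 genes and 3 members passed, against 234 and 1 at adjusted p under 0.01 and 4899 genes from the fit of 4 groups. Over both experiments 1027 genes and 2 members passed, against 2492 and 4 with DESeq2, 208 and 1 at 0.01, 1 member with at least 10 counts in every library, which leaves Yes1 out, 4811 and 6 as the mean of both contrasts, and 4 and 0 with no experiment term (edgeR, where 5 members had an unadjusted p under 0.05). Interaction passed for 5996 genes and 4 members, against 3247 and 2 at 0.01. Leaving out each library in turn gave 232 (without KO8) to 1388 genes and 0 to 2 members in experiment 2, 243 to 1100 genes and 0 (without KO5) to 3 members over both, and 3935 to 6508 genes and 2 to 4 members for the interaction. At 0 members, 3 had an unadjusted p under 0.05 in experiment 2 without KO8, and 4 over both without KO5. In experiment 1, with 7948 genes, the range was 6349 to 7149 genes and 4 to 5 members. A library left alone in its group was assumed to vary like the others. Upper-quartile scaling moved the split in experiment 1 from 4056 lower and 3892 higher to 3207 and 4776, and over both from 491 and 536 to 367 and 754, with a median shift of at most 0.0997. Mkl1 differed by -10.9 CPM at p = 0.0556 (exact permutation test) with labels exchanged within experiments alone, the smallest p that arrangement of libraries can give. The causes were not tested. Yes1, with 3 to 58 counts, was the member most limited by depth.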
